A study of Homo sapiens with 6 samples.

Results

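The genes described here are those of human chromosome 14 that start at or beyond 50 Mb, a stretch that runs from about NEMF to the immunoglobulin heavy chain genes near the end of the chromosome. They were taken as the rows of the deposited annotated table with chromosome 14, a start at or above 50000000 (GRCh37) and a single gene symbol, without IFI27, IFI27L1 and IFI27L2. That gave 642 transcript clusters of the 26515 with 1 symbol. A transcript cluster is the set of probes the array assigns to 1 gene. With the brightest cluster kept per gene, 632 of them stood among the 24930 genes tested. The other 10 were dimmer clusters of genes represented by another cluster. The stretch was selected on the differences between the lines in these same arrays, where earlier results showed higher values in the resistant line. Differences between the lines are therefore given as a description, and the calls of single genes, though they come from a fit over all genes, support nothing about the stretch as a whole.

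The data come from 6 Affymetrix arrays that measure whole transcripts, of which 3 hold RNA of T24, a line from a human bladder carcinoma, and 3 RNA of T24/THP, the multidrug-resistant line made from it. Per the labels, T24/THP was raised by treating T24 again and again for 24 h with pirarubicin, an anthracycline and topoisomerase II poison, at concentrations that went from 5 to 1000 ng/ml, and was dosed again at intervals to keep it resistant. T24 was the parental line, cultured alongside, and the labels call the 3 samples of each line biological replicates. The resistant line was made 1 time, so a spread between arrays is a spread between samples of 1 parental and 1 resistant line, and the time between the last dose and RNA extraction is not given in the sources used here. No DNA measurement came with these data. Values are log2 intensities, the number of arrays limits their precision, and array medians lay between 3.71 and 3.79. As a check of the labelled cell type, the epithelial keratins KRT8 and KRT18 were far above background in both lines (14.07 and 14.33 in T24), but KRT19, EPCAM and CDH1 were in the background range. So were all 6 urothelial markers, all 3 basal markers, both leukocyte markers and all 4 B cell markers. VIM, the intermediate filament of mesenchymal cells, was at 7.13 in T24 and 10.64 in T24/THP, and the endothelial cadherin CDH5 was at 12.30 and 13.12 while PECAM1 was in the background range; their part in the results was not tested. In bulk RNA a lower share of cells that express a gene and less of its RNA per cell cannot be told apart.

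Chromosome 14 is acrocentric, and its known protein-coding genes all lie on the long arm. The distal part of that arm holds genes of every kind of cellular work, from autophagy to splicing, along with 3 well-known clusters. These are the serpin A genes, which encode secreted protease inhibitors made mostly by the liver, the imprinted domain between DLK1 and DIO3, which produces a maternally expressed series of long, small nucleolar and micro RNAs, and the immunoglobulin heavy chain genes, which B cells rearrange to make antibodies.

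More of the distal genes were higher than lower in T24/THP, and the reverse held on the proximal part of the same chromosome. Of the 632 distal genes, 417 (66.0%) had a difference above 0, where a difference is the T24/THP mean minus the T24 mean in log2 units. Over all genes tested that share was 52.7%, and over the 279 proximal genes, those that start below 50 Mb, it was 46.2%. The median difference was 0.08 for the distal genes, −0.01 for the proximal genes and 0.01 over all genes. The threshold for a call was an adjusted p under 0.05 (limma, Benjamini-Hochberg across every gene tested) together with a difference of at least 2-fold. By that rule 46 distal genes rose (7.28%) and 2 fell (0.316%). Over all genes tested 2.85% were called higher and 3.77% lower, 6.62% in either direction. Among the proximal genes 4 rose and 8 fell. Since these shares come from the contrast that chose the stretch, nothing is read from them. All 48 called distal genes encode proteins, out of 377 protein-coding genes in the stretch. Of these 12.2% were called higher and 0.531% lower, beside 3.26% and 4.79% of all protein-coding genes tested, again in the contrast that chose the stretch. In the background range in both lines were 40.8% of the 377, 94.1% of microRNA, 93.3% of small nucleolar and 97.9% of long noncoding RNA genes of the stretch.

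Many of the distal genes were not measured above background. The upper bound of the background range, read from control probe sets, was 5.54 in T24 and 5.51 in T24/THP, and 389 of the 632 genes (61.6%) lay under it in both lines, against 57.8% over all genes. None of those 389 was called. By level, the median difference was 0.01 for the 288 distal genes with a mean under 4 over all arrays, 0.11 for the 112 genes from 4 to 5.5, 0.28 for the 103 genes from 5.5 to 8, 0.52 for the 59 genes from 8 to 10 and 0.53 for the 70 genes at 10 and above. Over all genes tested the median went the other way with level, from 0.02 under 4 to −0.15 at 10 and above. The proximal genes at 10 and above, 23 in number, had a median of −0.46. The share of distal genes above 0 was 80.0% in the top class and 81.6% from 5.5 to 8, against 40.4% and 45.6% over all genes.

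**Figure D1:**
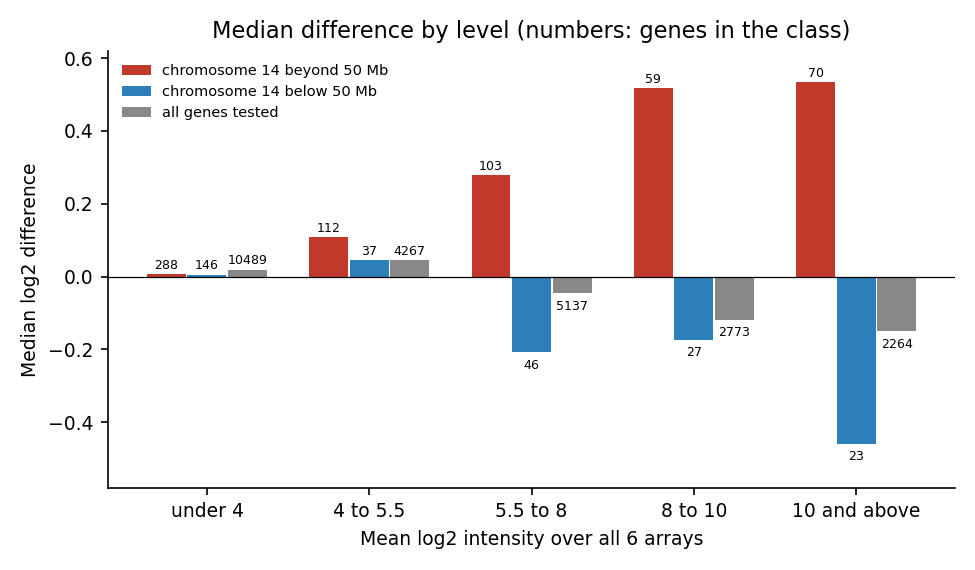
Median log2 difference (vertical axis, T24/THP minus T24) in 5 classes of mean log2 intensity over all arrays (horizontal axis), for distal chromosome 14 genes (red), proximal chromosome 14 genes (blue) and all genes tested (grey), with the number of genes at each bar. The red bars grow from 0.01 in the dimmest class to 0.53 in the brightest, while the grey bars go from 0.02 to −0.15.

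The brighter genes are those whose mean over all arrays reached or exceeded the median of all genes tested. That median was 4.55, under the background bounds of 5.54 and 5.51, so some brighter genes were in the background range. Of the distal genes 283 were brighter. Their median difference was 0.33, with quartiles of 0.05 and 0.78, and 225 of them (79.5%) lay above 0. The 117 brighter proximal genes had a median of −0.19 and the brighter genes overall −0.05. On the 22 other chromosomes, Y left aside, the median of the brighter genes ran from −0.35 to 0.06. Set against the mean of the T24 arrays, the median over the brighter distal genes was −0.06, −0.01 and 0.07 in T24 replicates 1, 2 and 3, and 0.35, 0.39 and 0.35 in T24/THP replicates 1, 2 and 3. The T24/THP arrays stood apart from the T24 arrays, but the stretch was chosen on this contrast, so nothing is read from that. The brighter proximal genes gave −0.25, −0.18 and −0.13 in the T24/THP arrays, and between −0.05 and 0.05 in T24. Within a line the distal genes varied between replicates about as other genes did, with a median SD of 0.104 in T24 and 0.083 in T24/THP, against 0.0955 and 0.0728 over all genes.

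**Figure D2:**
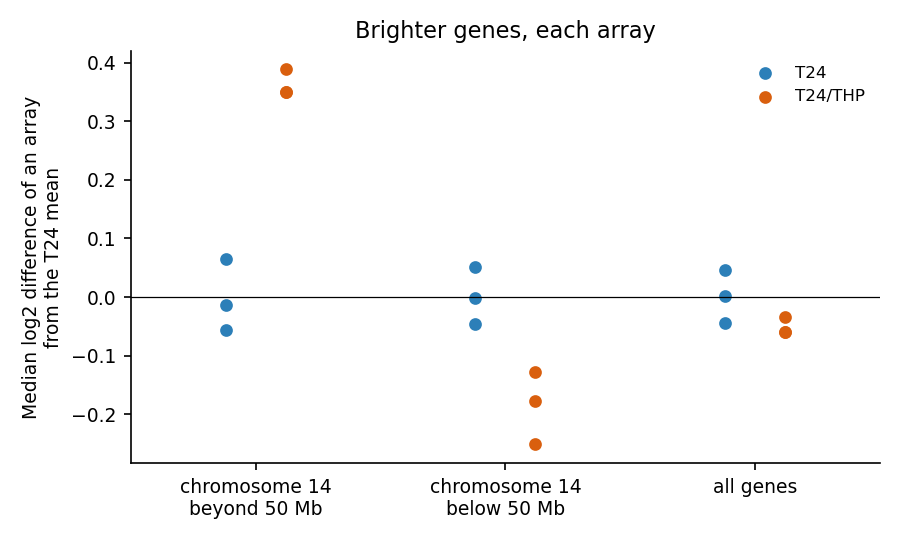
Median over brighter genes of the difference between 1 array and the mean of the 3 T24 arrays (vertical axis, log2 units), for distal chromosome 14, proximal chromosome 14 and all genes (horizontal axis), 1 point per array, T24 in blue and T24/THP in orange. The T24/THP points lie at 0.35 to 0.39 for the distal genes, where 2 points nearly coincide, and at −0.25 to −0.13 for the proximal genes.

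Along the chromosome the genes were grouped in bins of 5 Mb. The 50 Mb edge came with the stretch, which was chosen on these differences, so nothing is read from a change of sign there. Where a bin held at least 5 brighter genes, their median was under 0 below 50 Mb and above 0 beyond it. In these bins the median of the brighter genes was −0.17 from 20 to 25 Mb (68 genes), −0.33 from 30 to 35 Mb (13 genes), −0.20 from 35 to 40 Mb (25 genes) and −0.06 from 45 to 50 Mb (8 genes). It was 0.30 from 50 to 55 Mb (38 genes), 0.66 from 55 to 60 Mb (26 genes), 0.76 from 60 to 65 Mb (19 genes), 0.55 from 65 to 70 Mb (26 genes), 0.35 from 70 to 75 Mb (33 genes) and 0.52 from 75 to 80 Mb (27 genes). The bins from 80 to 85 and from 85 to 90 Mb held 5 brighter genes each, with medians of 0.25 and 0.36. From 90 to 95 Mb the median was 0.30 (27 genes), from 95 to 100 Mb 0.48 (12 genes) and from 100 to 105 Mb 0.30 (37 genes, 34 of them above 0). In the last bin, from 105 Mb on, it was 0.07 over 28 genes. Below 50 Mb the bin from 15 to 20 Mb held 1 brighter gene, at 0.35, and that from 25 to 30 Mb held 2, with a median of 0.11. Over all genes of a bin, dim ones included, the sides of the boundary were not separated. The median was 0.09 from 45 to 50 Mb and 0.07 from 15 to 20 Mb, above the 0.03 of the bins from 100 to 105 Mb and from 105 Mb on, and the lowest beyond 50 Mb was 0.0047, from 80 to 85 Mb. The highest was 0.34, from 55 to 60 Mb. The 17 genes called higher from 55 to 65 Mb fell in the bins with the greatest medians of the brighter genes, 8 in the one and 9 in the other. Calls and medians rest on the same differences, so nothing is read from this. The brighter genes of the plus strand had a median of 0.32 and those of the minus strand 0.39. Called higher were 19 of 356 plus-strand genes (5.34%) and 27 of 276 minus-strand genes (9.78%), beside 2.85% of all genes tested. In the background range in both lines were 67.4% of the plus-strand and 54.0% of the minus-strand genes.

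**Figure D3:**
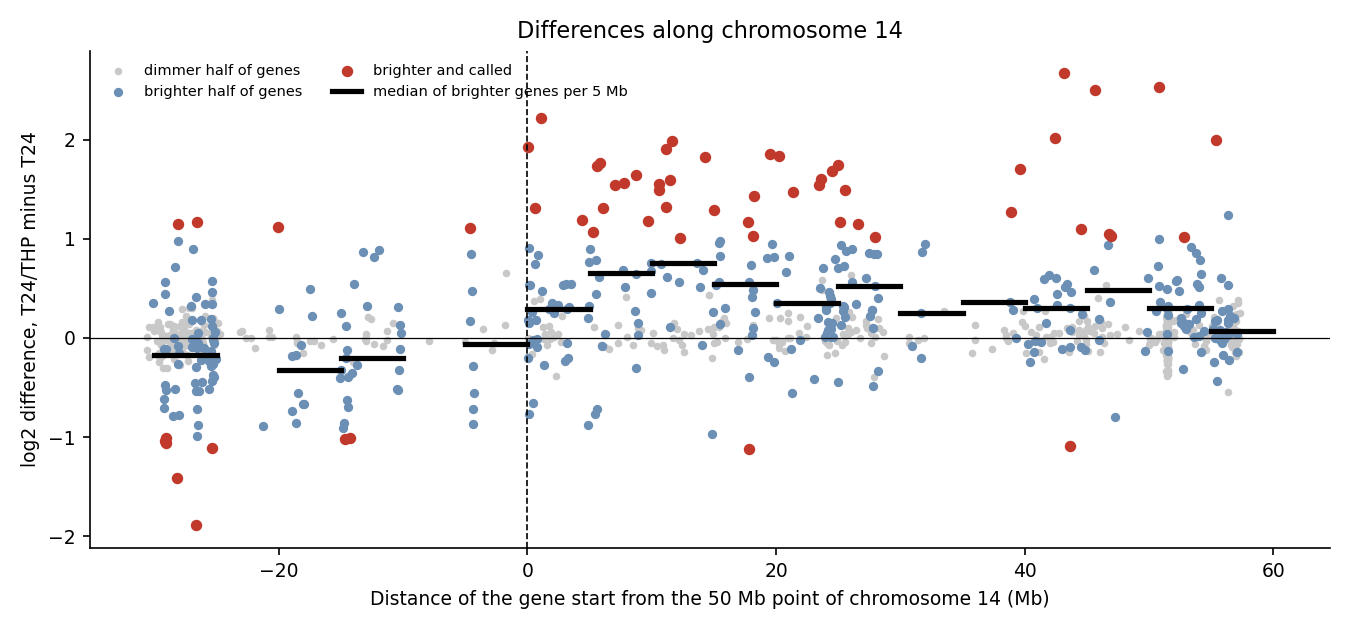
Log2 difference of each chromosome 14 gene (vertical axis, T24/THP minus T24) against the distance of its start from the 50 Mb point (horizontal axis, Mb), with dimmer genes in grey, brighter genes in blue, called genes in red and black bars for the median of the brighter genes in each 5 Mb bin that holds at least 5 of them. The bars, which show brighter genes only, lie under 0 left of the dashed line and between 0.07 and 0.76 right of it. The stretch right of the line was chosen on these differences.

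By rule, the genes named come from the 10 greatest rises, the falls, up to 2 called genes per list and direction, 3 genes on each side of 50 Mb, and AKT1, HSP90AA1, TRAF3, DICER1, WARS1, HIF1A, FOS, DLK1 and MEG3. The greatest rises and the falls were taken from called genes whose arrays did not overlap between the lines. They also had to lie above background in at least 1 line. Every other gene named here was chosen after its values were seen. The boundary itself lies in a stretch with few expressed genes. Just below 50 Mb, RPL10L, a testis relative of a ribosomal protein, and MDGA2, a neuronal adhesion protein, lay within background in both lines, with differences of −0.12 and −0.05. Further out, near 45 Mb, neighbouring genes differed in sign. KLHL28 rose by 1.11 and TOGARAM1 and PRPF39 were at 0.85 and 0.47, while FKBP3 was at −0.87 and FANCM at −0.72. The 3 named genes just beyond 50 Mb are NEMF, RPS29 and LRR1. NEMF, which marks stalled ribosomal products for disposal, rose by 1.92 ± 0.100 (SE), RPS29, a protein of the small ribosomal subunit, was at 0.18, and LRR1, a substrate receptor of a ubiquitin ligase, was at −0.20. Members close to the boundary thus differed among themselves in size and sign.

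The greatest rise was that of LGMN (TC14001451.hg.1, 93170152 to 93215047), which encodes legumain, a cysteine protease of the lysosome. Its log2 intensity was 9.94, 9.99 and 10.17 in T24 and 12.66, 12.87 and 12.58 in T24/THP. The lines did not overlap, and the difference was 2.67 ± 0.094 (SE), or 6.36-fold. WARS1 (TC14001509.hg.1, 100800125 to 100843142), the cytosolic tryptophanyl-tRNA synthetase and a gene that interferon induces, was at 10.27, 10.18 and 10.13 in T24 and at 12.75, 12.85 and 12.56 in T24/THP, a 5.76-fold difference. CLMN (TC14001474.hg.1, 95648276 to 95786245), which encodes the membrane-bound actin-binding protein calmin, was in the background range in T24, at 5.21, 5.26 and 5.19, and reached 7.72, 7.80 and 7.65 in T24/THP. It was at least 4.55-fold higher, counted from the upper bound of background. SAV1 (TC14001122.hg.1, 51100354 to 51135056), the scaffold of the Hippo kinases, was at 9.98, 9.88 and 10.10 in T24 and at 12.22, 12.22 and 12.17 in T24/THP, a 4.64-fold difference with the T24/THP arrays within 0.1 of each other.

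Among the other greatest rises were those of TRIP11, AHNAK2, PRKCH, NEMF and DCAF5. TRIP11, a golgin that tethers vesicles at the Golgi, was at 7.74, 7.77 and 8.02 in T24 and at 10.03, 9.56 and 10.00 in T24/THP, where replicate 2 was the lowest and still above every T24 array. AHNAK2, a giant scaffold protein, rose 3.98-fold. PRKCH, the protein kinase C eta isoform of epithelia, had a T24 mean just above background at 5.59 ± 0.10, with replicate 1 at 5.48 under the bound. It rose to 7.57 ± 0.10 (SD, n = 3 each), a 3.95-fold difference. NEMF rose 3.79-fold and DCAF5, a substrate receptor of a cullin ligase, 3.61-fold. Across these genes and LGMN, WARS1, CLMN and SAV1 the replicates of a line lay within 0.5 log2 units of one another. That every T24/THP array lay above every T24 array was a condition of the choice, so nothing is read from it. These genes are spread over the whole stretch, from NEMF at 50033027 to AHNAK2 at 105403590.

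**Figure D4:**
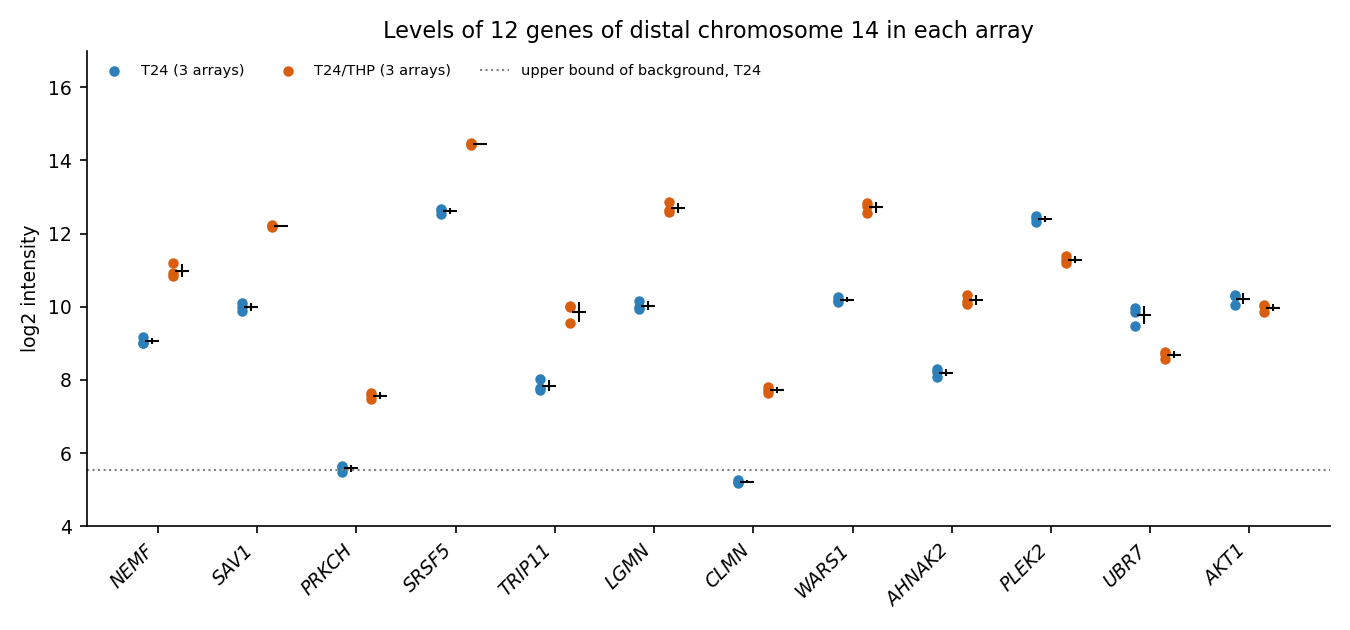
Log2 intensity (vertical axis) of 12 distal chromosome 14 genes (horizontal axis), 1 point per array, T24 in blue and T24/THP in orange, with the mean and SD of each line beside the points and the upper bound of the T24 background dotted. The lines do not overlap for the 9 genes that rose nor for PLEK2 and UBR7, which fell, while for AKT1 the nearest arrays of the lines lie close together. Except for SRSF5 and AKT1, the genes were chosen on the condition that the lines do not overlap.

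Of the 632 genes, PLEK2 and UBR7 were the 2 that fell. PLEK2, an actin-organising pleckstrin relative, was at 12.32, 12.42 and 12.48 in T24 and at 11.29, 11.39 and 11.19 in T24/THP, a 2.17-fold difference. UBR7, a ubiquitin ligase that acts on histone H2B, was at 9.49, 9.86 and 9.98 in T24 and at 8.77, 8.71 and 8.58 in T24/THP, a 2.12-fold difference. Neither fall kept the 2-fold minimum with quantile normalization (−0.996 and −0.94) or once the trend with level was removed (−0.96 and −0.98), and UBR7 missed it without T24 replicate 3 (−0.98).

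Genes of vesicles, lysosomes and autophagy held 6 of the 46 rises. There were 15 on the array, of which 6 rose and 0 fell, and their median was 0.84. The 14 brighter ones had a median of 0.86, beside 0.33 for all brighter distal genes. For this list and those that follow, the shares called higher were 7.28% over the distal genes and 2.85% over all genes, and most of the lists hold mainly brighter genes, the exceptions being matrix, the serpins, AP-1 and TCL1. After LGMN and TRIP11 came ATG14, a subunit of the lipid kinase complex that starts autophagosomes, which was at 7.94, 7.94 and 7.99 in T24 and at 9.64, 9.80 and 9.75 in T24/THP. NPC2, which carries cholesterol out of lysosomes, went from 10.08, 10.05 and 10.11 to 11.77, 11.94 and 11.77. These lines lay well apart, with differences of 1.77 and 1.75. AP5M1, an adaptor subunit of late endosomes, rose by 1.56 and ATG2B, a lipid transfer protein of autophagosomes, by 1.05. At the other end of this list, the Golgi protein TMED8 was at −0.48 and GALC, the lysosomal enzyme that degrades galactosylceramide, was in the background range. Further called genes with membrane roles were ZFYVE1 (1.54) and ZFYVE26 (1.43), both of which bind phosphoinositide lipids, SPTLC2, a subunit of the enzyme that starts sphingolipid synthesis, and KTN1, a kinesin-binding protein of the endoplasmic reticulum (1.31). SPTLC2 rose by 1.02 and lost its call without T24 replicate 1 (0.96) or replicate 2 (0.98).

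All 9 genes listed under protein folding and its quality control lay above 0, with a median of 0.52, and none was called. The list also holds PIGH, which is not a folding gene, and 1 of the 9 lay within background in both lines. Of all brighter distal genes 79.5% lay above 0. SEL1L, the adaptor of the ligase that clears misfolded proteins, had a difference of 0.95 and ERO1A, the oxidase that drives disulfide formation, 0.55. HSP90AA1, the inducible cytosolic HSP90, was at 14.86, 15.03 and 14.91 in T24 and at 15.09, 15.09 and 15.09 in T24/THP, a difference of 0.16. Of 10 genes of protein turnover, AREL1, a ubiquitin ligase, rose by 1.17 and UBR7 fell, while the proteasome subunits PSMA3, PSMC1 and PSMC6 were at −0.30, −0.14 and −0.05.

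Of 12 genes of RNA processing 3 rose and none fell, with a median of 0.47. SRSF5, a splicing factor, was at 12.53, 12.64 and 12.68 in T24 and at 14.46, 14.42 and 14.48 in T24/THP, a 3.58-fold difference. DDX24, an RNA helicase, rose by 1.10, and PAPOLA, the nuclear poly(A) polymerase, by 1.03. DICER1, which cuts microRNA precursors, had a difference of 0.68 ± 0.081 (SE), under the 2-fold minimum. Of 5 genes of translation only WARS1 was called, with EIF5 at 0.86 and EIF2S1 at −0.39.

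Of 21 transcription and chromatin genes 5 rose and none fell, with a median of 0.40. SIX4, a homeobox factor, was at 8.77, 8.56 and 8.61 in T24 and at 10.07, 10.02 and 9.81 in T24/THP, a difference of 1.32. FOXN3, a forkhead repressor, rose by 1.71, ARID4A, a partner of the retinoblastoma protein, by 1.64 and SNAPC1, a subunit of the complex that starts small nuclear RNA transcription, by 1.01. SNAPC1 lost its call when T24 replicate 1 or 2 or T24/THP replicate 1 or 3 was left out. HIF1A, the oxygen-regulated factor, was at 13.84, 13.63 and 13.67 in T24 and at 14.23, 14.20 and 14.39 in T24/THP. Its lines did not overlap, and its difference of 0.56 was under the 2-fold minimum. The AP-1 genes FOS, JDP2 and BATF lay within background in both lines, with a median of 0.10, and so were both measured genes of the TCL1 group (median 0.08).

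Of 21 genes listed under kinase and small GTPase signalling only PRKCH was called, and the median was 0.26. The list was broad and held members that are not themselves kinases, phosphatases or GTPases, such as TRAF3 and JAG2. AKT1, the kinase at the centre of survival signalling, was at 10.05, 10.29 and 10.33 in T24 and at 10.02, 10.05 and 9.87 in T24/THP, a difference of −0.24 that did not pass the test. TRAF3, a brake on NF-kB signalling, was at 7.87 to 8.36 in T24 and 8.17 to 8.29 in T24/THP. Off the list, SOS2, an exchange factor that activates RAS, rose by 1.31. Of 10 genes of TGF-beta signalling and matrix LGALS3, a galactose-binding lectin, rose 3.34-fold and BMP4, a secreted growth factor, 2.29-fold, while TGFB3 was in the background range. Of 25 mitochondrial and metabolic genes 2 rose, ALDH6A1, an enzyme of valine breakdown, 3.21-fold and SPTLC2 2.03-fold, and the median was 0.21. The lowest was MTHFD1, an enzyme of one-carbon metabolism, at −0.97, which was not called. None of 7 genes listed under DNA repair was called, with a median of 0.26. The list also holds BRF1, which is not a repair gene, and 2 of the 7 lay within background in both lines.

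**Figure D5:**
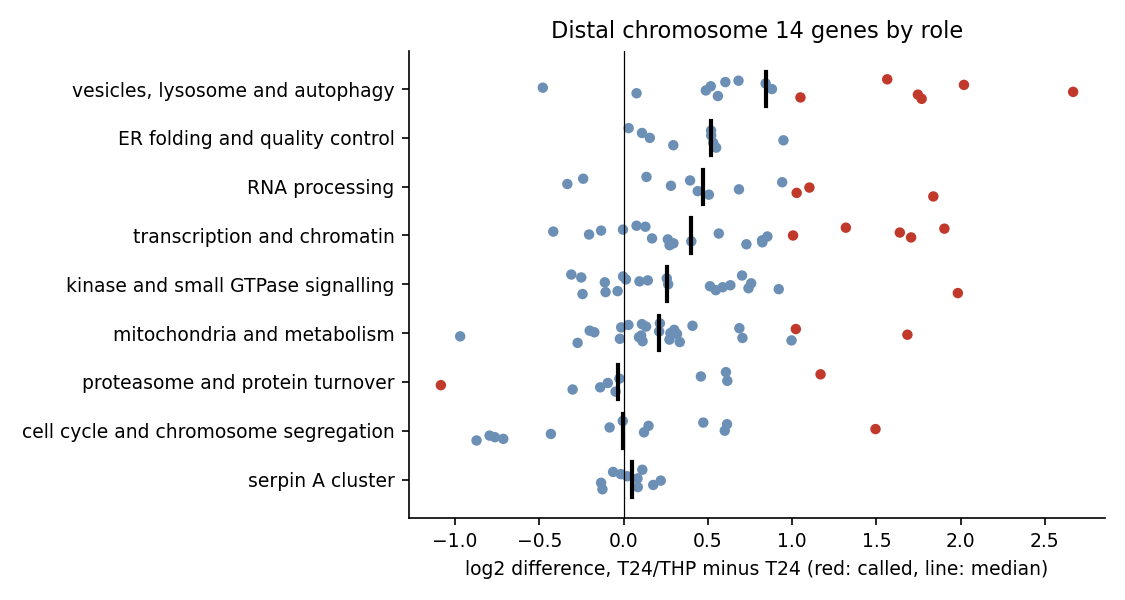
Log2 difference (horizontal axis, T24/THP minus T24) of the distal chromosome 14 genes on 9 lists of roles (vertical axis), 1 point per gene, red where the gene was called and blue otherwise, with a bar at the median of each list. The median is 0.84 for vesicles, lysosome and autophagy and near 0 for protein turnover, the cell cycle and the serpins.

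The cell cycle genes were divided in direction, with 6 of 13 above 0. Of them NEK9, a kinase of spindle assembly, rose by 1.49 and none fell, and the median was −0.01. CDKN3, a phosphatase of cyclin-dependent kinases, was at 11.95, 12.04 and 12.08 in T24 and at 11.18, 11.10 and 11.18 in T24/THP. VRK1, a chromatin kinase of dividing cells, was at 10.51, 10.85 and 10.81 in T24 and at 9.88, 10.04 and 9.87 in T24/THP. In both the lines stood apart, with differences of −0.87 and −0.80 that were under the 2-fold minimum. WDHD1, a replication fork protein, was at −0.76, DLGAP5, a spindle protein, at −0.71 and CDCA4, an E2F-responsive gene, at −0.43. On the other side MNAT1, a subunit of the kinase that activates cyclin-dependent kinases, was at 0.61, CCNK, a cyclin of transcription kinases, at 0.60, NIN, a centrosome protein, at 0.47, KIAA0586, a centriole protein, at 0.15 and CINP at 0.12. The arrays of the lines did not overlap for 5 genes that were higher and 5 that were lower (38.5% each). Over all genes tested those shares were 22.0% and 23.2%, and over the distal genes 35.8% and 6.49%.

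Promoter sequences from RefSeq (GRCh38.p14) were searched for letters that interferon factors, E2F and mitotic regulators read, over the 250 bases before the start, on both strands. They were matched for 372 of the distal genes, some with several starts. The core of the interferon-stimulated response element (ISRE: GAAA, any 2 bases, GAAA) stood in 9 of 528 promoters of these genes (1.70%) and in 3.02% of all promoters. The cell cycle homology region TTTGAA stood in 10.4% against 13.3%, and the E2F words TTTCCCGC and TTTGGCGC in 2.08% against 1.93%. Promoters of genes that rose (WARS1, NEMF and SAV1) and of genes that were lower (DLGAP5 and CDKN3) are shown as examples with and without matches. Whether matches go with the direction of a gene was not tested. NEMF holds 2 matches to the cell cycle word as DLGAP5 does, and WDHD1 and MTHFD1, both lower, hold none. Of the genes that fell, UBR7 holds 1 match to an E2F word and PLEK2 holds no match. Matches are in capitals, and each sequence reads 5′ to 3′ on the strand of its gene. WARS1 has 2 starts in the table, the first at chr14:100376328-100376577 on the minus strand with no match, the second at chr14:100375348-100375597 on the minus strand with 1 match to the interferon core. DLGAP5 lies at chr14:55191586-55191835 on the minus strand with 2 matches to the cell cycle word, and CDKN3 at chr14:54396757-54397006 on the plus strand with 1. NEMF lies at chr14:49852789-49853038 on the minus strand with 2. The promoter of SAV1, at chr14:50668307-50668556 on the minus strand, holds none of these letters.
WARS1 first start: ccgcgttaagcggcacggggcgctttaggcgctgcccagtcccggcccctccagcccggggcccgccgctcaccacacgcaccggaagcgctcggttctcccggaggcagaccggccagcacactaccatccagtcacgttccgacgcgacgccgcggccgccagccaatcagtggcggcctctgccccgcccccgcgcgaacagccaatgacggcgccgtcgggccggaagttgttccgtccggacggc
WARS1 second start: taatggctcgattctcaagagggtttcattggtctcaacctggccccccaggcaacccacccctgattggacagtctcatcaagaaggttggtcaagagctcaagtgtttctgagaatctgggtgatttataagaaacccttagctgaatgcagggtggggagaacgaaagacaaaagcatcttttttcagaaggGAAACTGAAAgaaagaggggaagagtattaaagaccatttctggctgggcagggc
DLGAP5: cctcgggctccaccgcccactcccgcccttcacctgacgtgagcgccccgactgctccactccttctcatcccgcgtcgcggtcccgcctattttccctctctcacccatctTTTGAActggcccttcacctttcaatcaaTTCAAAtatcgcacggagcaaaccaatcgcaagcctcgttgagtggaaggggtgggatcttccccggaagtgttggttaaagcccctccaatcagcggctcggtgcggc
CDKN3: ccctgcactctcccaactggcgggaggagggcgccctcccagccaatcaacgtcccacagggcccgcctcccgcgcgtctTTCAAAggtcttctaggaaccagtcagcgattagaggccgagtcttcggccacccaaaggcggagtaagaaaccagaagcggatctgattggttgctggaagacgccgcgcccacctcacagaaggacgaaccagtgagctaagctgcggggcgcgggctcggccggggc
NEMF: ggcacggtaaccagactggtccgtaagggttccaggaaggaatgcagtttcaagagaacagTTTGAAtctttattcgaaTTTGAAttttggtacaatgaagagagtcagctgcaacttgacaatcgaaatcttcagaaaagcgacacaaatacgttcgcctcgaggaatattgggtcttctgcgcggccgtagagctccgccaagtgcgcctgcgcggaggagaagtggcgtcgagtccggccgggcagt
SAV1: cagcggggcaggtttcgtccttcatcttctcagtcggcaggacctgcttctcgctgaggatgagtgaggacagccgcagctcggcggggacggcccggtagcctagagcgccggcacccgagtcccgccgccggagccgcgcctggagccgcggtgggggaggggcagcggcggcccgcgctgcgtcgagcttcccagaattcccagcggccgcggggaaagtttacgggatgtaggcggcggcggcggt

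Both genes listed as interferon induced rose (median 1.80), WARS1 as above and GCH1, which starts synthesis of the cofactor tetrahydrobiopterin, from 5.66, 5.90 and 5.82 to 6.89, 7.03 and 6.68. The lines of GCH1 did not overlap, and its 2.10-fold difference lost its call without T24/THP replicate 2 (0.99). The 3 genes left out by rule lie together from 94547628 on. Of these IFI27 was higher by 11.16, IFI27L1 by 0.31 and IFI27L2, within background in T24, at least 1.79-fold, and with them kept in the median of the stretch was 0.08 and 47 genes were called higher.

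Most genes of the clusters were in the background range. Of the 102 genes between DLK1 and DIO3 (101193164 to 102029789), 100 lay within background in both lines and none was called, with a median difference of −0.02. DLK1, a growth-regulating membrane protein, was at 3.71 ± 0.07 in T24 and 3.65 ± 0.02 in T24/THP, and MEG3, the maternally expressed long RNA, at 3.16 ± 0.07 and 3.21 ± 0.01 (SD, n = 3 each). The 40 small nucleolar RNA genes there had a median of −0.07 and the 54 microRNA genes 0.02. Of all 68 microRNA genes of the stretch 64 were in the background range, and among the others MIR345 was at 6.61 in T24 and 7.13 in T24/THP. Of 51 immunoglobulin heavy chain genes 44 were in the background range, none was called, and the median was 0.03. The diversity segment IGHD2-21, among the others, was at 8.46, 8.07 and 7.18 in T24 and 7.89, 7.91 and 8.37 in T24/THP, so its replicates overlapped across lines. The B cell markers MS4A1, CD79A and CD79B had line means of 3.11 to 4.21. None of 10 serpin A genes was called. SERPINA1, the inhibitor of neutrophil elastase, was the 1 serpin above background in both lines, at 6.21 and 6.09.

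Wider and narrower counts were made in the same contrast that chose the stretch, so nothing is read from them. The arrays of the lines did not overlap for 226 distal genes that were higher in T24/THP (35.8%) and 41 that were lower (6.49%), where over all genes those shares were 22.0% and 23.2%. For the proximal genes they were 16.8% and 24.7%. With an adjusted p under 0.05 and no minimum difference 180 distal genes were higher and 21 lower, against 15.1% and 18.0% over all genes, or 28.5% and 3.32% of the distal genes. A test against a 2-fold difference itself left 27 higher and none lower, with 1.43% and 1.53% over all genes. Among the 886 transcript clusters of the stretch with no symbol 33 were called higher and 4 lower in a fit over all clusters, where 2.28% and 1.99% of all clusters were called. The 10 dimmer clusters not kept differed by 0.08 to 0.58, and none was called.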

How the data were processed

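Total RNA of 3 T24 and 3 T24/THP samples was hybridised to Affymetrix whole-transcript arrays. The values the authors deposited, log2 intensities of transcript clusters, were made with Affymetrix Expression Console, per the submitters' processing notes; which version, algorithm and normalization was used is not given in the sources used here. An annotated table gives gene symbols and GRCh37 positions. Symbols were updated through RefSeq, and 3655 changed. Of 65854 transcript clusters 26515 had 1 symbol, and the cluster with the highest mean was kept per gene, which left 24930 genes. Levels of different genes were used only to sort genes into classes.

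All genes were fitted with limma 3.58.1 in R 4.3.3, two-sided, with Benjamini-Hochberg adjustment, and the threshold for a call was an adjusted p under 0.05 with a difference of at least 1 log2 unit. Since each line was derived once, p-values measure the spread between these samples. The background bound of a line was the mean over its arrays of the highest of 23 control probe sets. In T24 these maxima were 5.29, 4.93 and 6.38 in replicates 1, 2 and 3. A gene whose mean lay under the bound in 1 line has only a bound there. Its fold is given as at least the brighter mean over that bound. Folds of genes just above the bound in T24, such as PRKCH, GCH1 and BMP4, are less certain. In simulated data on these 24930 genes, 92% of 50 genes changed by 1.25 log2 units were called, 100% of 50 changed by 2, and 1 of 24730 unchanged genes.

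The stretch, the gene lists (vesicles, folding, turnover, cell cycle, repair, transcription, AP-1, RNA processing, translation, matrix, kinases, metabolism, serpins, interferon and TCL1) and the naming rule given in the text were chosen with earlier results of these data known. A few genes that the rule names are not reported here. Promoter sequences came from RefSeq (GRCh38.p14), which has another build than the array positions. Alternatives were quantile normalization, removal of the trend of the difference with level, an offset of 32, filters, gene classes, the boundary, the test and single arrays left out.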

Additional observations from a re-analysis of the deposited data

Results flagged for a closer look

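Transcript clusters without a gene symbol were outside the comparisons. Fitted with all 65854 clusters, 33 of the 886 unnamed clusters beyond 50 Mb were called higher in T24/THP (3.72%) and 4 lower (0.451%). Over all 39171 unnamed clusters 1.79% were called higher and 0.86% lower. The 209 brighter unnamed clusters of the stretch had a median difference of 0.23, with 71.3% above 0, beside a median of 0.14 and 65.3% over all brighter unnamed clusters. They show a signal in the same contrast that chose the stretch, and they can overlap named genes.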

How the results depend on the processing

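The count of distal genes called higher was 27 in the test against a 2-fold difference and 180 with no minimum difference, and 43 to 51 with 1 array left out. The count called lower was 0 with quantile normalization, 0 with the level trend removed, 0 against 2-fold and 21 with no minimum, and 1 to 3 with 1 array left out, 1 of them without T24 replicate 3. The median difference was 0.0579 with quantile normalization, 0.0216 with an offset of 32, 0.34 with a filter on low values, 0.13 without small RNA, immunoglobulin and unnamed loci and 0.15 for protein-coding genes, and 0.0752 to 0.0872 with 1 array left out. Its gap to the proximal genes was 0.0248 with the offset, 0.54 with the filter, 0.077 with the boundary at 55 Mb and 0.14 without the small loci, and 0.083 to 0.109 with 1 array left out. The median of the brighter genes was 0.41 with quantile normalization, 0.42 with the trend removed and 0.27 with the offset, and 0.342 to 0.397 with 1 array left out. The share above 0 was 79.6% with the filter and 64.1% to 67.6% with 1 array left out. Over all genes 356 were called higher against 2-fold, 3768 with no minimum and 1502 over all clusters, and 382 and 4478 were called lower in the first and second of these, with 698 to 731 higher and 892 to 1048 lower when 1 array was left out. The cause was not tested where the construction does not show it. No direction among the 48 called genes changed under any setting. Same-numbered arrays correlated in their deviations at 0.0396, 0.151 and 0.0186, and arrays with different numbers at −0.153 to 0.107. So few and small values cannot settle whether the numbers pair the samples. The fit with the replicate number as a block gave 47 higher and 2 lower and changed no call of the 48. The offset of 32 removed 7 calls, among them BMP4 (0.85) and GCH1 (0.77). The background range limits the 389 genes under it.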
